A study of Homo sapiens with 17 samples.

Results

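H3K27ac and H3K9ac, acetyl marks on 2 lysines of histone H3, were compared as peaks in control-arm HCC1954 cells, an established HER2-positive human breast cancer line. The comparison used the 3 acetyl-mark libraries of the arm labelled NC1235, of 17 samples in the series: 2 libraries of H3K27ac and 1 of H3K9ac, each with its own deposited peak list. All cells had been transfected with antisense oligonucleotides and were fixed 72 hours later. The labels do not spell out NC or Si. The title of the series names the long non-coding RNA LINC01235, and Si1235 is the name of the other arm, used below only as a further readout. Peaks of the 3 lists that overlapped or touched were merged, which gave 63929 sites on chromosomes 1 to 22 and X. A site was called H3K27ac only when both H3K27ac lists and not the H3K9ac list had a peak in it, H3K9ac only when the H3K9ac list alone had one, and shared when all 3 lists had one. These classes held 7471 sites (11.7% of all), 17511 sites (27.4%) and 32022 sites (50.1%), in that order. Of the others, 4617 sites (7.22%) had a peak in 1 H3K27ac list and none of H3K9ac, and 2308 sites (3.61%) had a peak in 1 H3K27ac list and one of H3K9ac.

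H3K27ac is laid down mainly by the acetyltransferases p300 and CBP and marks active promoters and enhancers. H3K9ac is laid down mainly by GCN5 and PCAF, the catalytic subunits of the SAGA and ATAC complexes, and is known best from the promoters of active genes. Many active promoters carry both marks, together with the histone variant H2A.Z at the nucleosomes that flank the start site. HCC1954 cells carry an amplified ERBB2 locus on chromosome 17, with neighbouring genes of the same amplicon.

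With 1 H3K9ac library, the mark, its antibody and its library cannot be told apart, and no test was made. Every value below describes these libraries, and sites of 1 library are not replicates. The peak names inside the NC1235 and Si1235 H3K9ac lists read H3K6AC, so that 0 of the 59954 deposited NC1235 names carry the labelled mark. The label was followed. The lists also differed in the summit values behind their weakest peaks, and the reason is not known. For each of the 1500 weakest peaks a whole number of reads at the summit was sought that gives the authors' fold enrichment and −log10 p-value, to within 0.002 of that −log10 value. One was found for 0.733% and 12.7% of peaks in H3K27ac libraries 1 and 2, against 100% in the H3K9ac library. The part of this difference in the results was not tested. The lists hold no read counts, so the depth of the libraries is unknown.

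Promoters of 2 genes from each class show what the classes look like as sequence. They are the highest-ranked named genes of each class (ranked by fold enrichment, as explained below) whose annotated start lay inside the site. Each runs from 250 bases before the start to 50 after it, from the RefSeq table of GRCh38.p14, with every CG dinucleotide in capitals. The first pair had H3K27ac only. LOC124904962 (chr20:22744420-22744719, plus strand) is a gene model with 1 CG, and PTP4A1 (chr6:63516190-63516489, plus strand) encodes a protein tyrosine phosphatase, with 1 CG at the start shown. Another annotated start of PTP4A1 had both marks.
LOC124904962: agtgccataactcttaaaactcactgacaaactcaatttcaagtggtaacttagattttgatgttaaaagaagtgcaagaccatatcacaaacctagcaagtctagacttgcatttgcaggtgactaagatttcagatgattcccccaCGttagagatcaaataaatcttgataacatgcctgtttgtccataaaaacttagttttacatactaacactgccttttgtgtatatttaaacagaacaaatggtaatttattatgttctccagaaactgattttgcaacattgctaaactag
PTP4A1: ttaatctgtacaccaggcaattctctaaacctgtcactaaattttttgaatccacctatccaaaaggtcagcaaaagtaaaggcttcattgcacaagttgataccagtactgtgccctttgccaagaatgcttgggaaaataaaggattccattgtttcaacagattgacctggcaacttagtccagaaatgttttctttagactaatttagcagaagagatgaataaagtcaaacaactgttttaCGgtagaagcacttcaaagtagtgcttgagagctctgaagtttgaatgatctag
The second pair had H3K9ac only. CACNB4 (chr2:152099118-152099417, minus strand) encodes a beta subunit of voltage-gated calcium channels and had 23 CGs, and CENPV (chr17:16353420-16353719, minus strand) encodes a centromere protein and had 44.
CACNB4: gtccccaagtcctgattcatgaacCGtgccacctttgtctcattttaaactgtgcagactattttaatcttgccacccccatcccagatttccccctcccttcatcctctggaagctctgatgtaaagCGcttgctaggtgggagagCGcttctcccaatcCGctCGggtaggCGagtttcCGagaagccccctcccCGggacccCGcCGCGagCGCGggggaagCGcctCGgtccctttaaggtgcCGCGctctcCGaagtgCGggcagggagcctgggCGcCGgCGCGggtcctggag
CENPV: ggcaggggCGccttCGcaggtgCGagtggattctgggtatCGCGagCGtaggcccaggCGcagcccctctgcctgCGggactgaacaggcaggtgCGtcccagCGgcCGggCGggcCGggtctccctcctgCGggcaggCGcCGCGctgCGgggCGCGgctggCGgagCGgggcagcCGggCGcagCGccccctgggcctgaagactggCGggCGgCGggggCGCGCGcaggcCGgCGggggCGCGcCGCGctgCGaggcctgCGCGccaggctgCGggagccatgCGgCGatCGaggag
The third pair had both marks. EWSR1 (chr22:29268018-29268317, plus strand) encodes an RNA-binding protein and had 28 CGs, and CDC42SE1 (chr1:151059573-151059872, minus strand) encodes a small effector of the GTPase CDC42 and had 31.
EWSR1: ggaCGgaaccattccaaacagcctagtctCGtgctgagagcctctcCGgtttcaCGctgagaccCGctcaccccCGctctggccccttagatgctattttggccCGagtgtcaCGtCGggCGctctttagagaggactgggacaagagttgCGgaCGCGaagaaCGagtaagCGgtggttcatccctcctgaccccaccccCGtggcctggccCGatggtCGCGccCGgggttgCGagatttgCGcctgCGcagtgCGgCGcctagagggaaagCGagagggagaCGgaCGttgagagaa
CDC42SE1: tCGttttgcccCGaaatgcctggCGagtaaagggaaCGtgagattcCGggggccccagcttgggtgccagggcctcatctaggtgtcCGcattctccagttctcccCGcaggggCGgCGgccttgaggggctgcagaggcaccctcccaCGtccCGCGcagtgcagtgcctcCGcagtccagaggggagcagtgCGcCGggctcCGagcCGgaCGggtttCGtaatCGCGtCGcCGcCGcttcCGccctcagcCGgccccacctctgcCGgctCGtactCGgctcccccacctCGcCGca
The contrast in CG content between these H3K27ac-only starts and the other 4 held over the whole set of promoters, described further on. RHBDD3, PLET1, PLA2G2F and MIA3 were passed over, because the promoter overlapped that of EWSR1 (RHBDD3) or because the annotated start lay outside the site, a choice made after the classes were known. EIF2S2, OLR1 and BATF3 also ranked above genes shown and are named only, since no promoter was matched to them.

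The lists were of similar extent. The H3K27ac lists held 44836 and 48391 peaks that covered 69.5 and 69.9 Mb, and the H3K9ac list held 59945 peaks over 74.3 Mb. H3K27ac peaks were the wider, with medians of 1098 and 956 bp in libraries 1 and 2, against 724 bp for H3K9ac. The H3K27ac lists overlapped each other in 93.7% of the peaks of library 1 and 89.9% of the peaks of library 2. Of the H3K27ac peaks of libraries 1 and 2, 78.2% and 75.5% overlapped an H3K9ac peak, and of the H3K9ac peaks 68.1% and 68.7% overlapped a peak of H3K27ac library 1 and 2. The H3K9ac list overlapped that of the Si1235 arm in 77.8% of its peaks. Agreement between the 2 H3K27ac lists was thus higher than that between either H3K27ac list and the H3K9ac list. Across the arms, H3K27ac library 1 overlapped the Si1235 H3K27ac lists in 87.1% and 85.1% of its peaks, and library 2 in 84.5% and 82.35%. The H3K9ac lists of the arms overlapped less than these did, with 1 library each.

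Sharing went with the strength of a peak within its own list. The authors' fold enrichment, the ratio of summit signal to local background, was used for this and compared only within a list. Of the strongest 25% of peaks, 99.4% and 99.2% lay in shared sites in H3K27ac libraries 1 and 2, and 92.9% did in the H3K9ac library. Of the weakest 25%, 45.8% and 41.4% of H3K27ac peaks and 41.9% of H3K9ac peaks did. The median fold enrichment was 6.05 and 6.37 at H3K27ac-only sites in libraries 1 and 2, against 15.1 and 14.6 at shared sites in the same lists. It was 4.38 at H3K9ac-only sites, against 7.48 at shared sites in the H3K9ac list. Strong single-mark peaks were rarer in the H3K27ac lists: 0.805% and 1.224% of the peaks in H3K27ac-only sites were among the top 25% of library 1 and 2, against 4.79% of the peaks in H3K9ac-only sites.

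**Figure D1:**
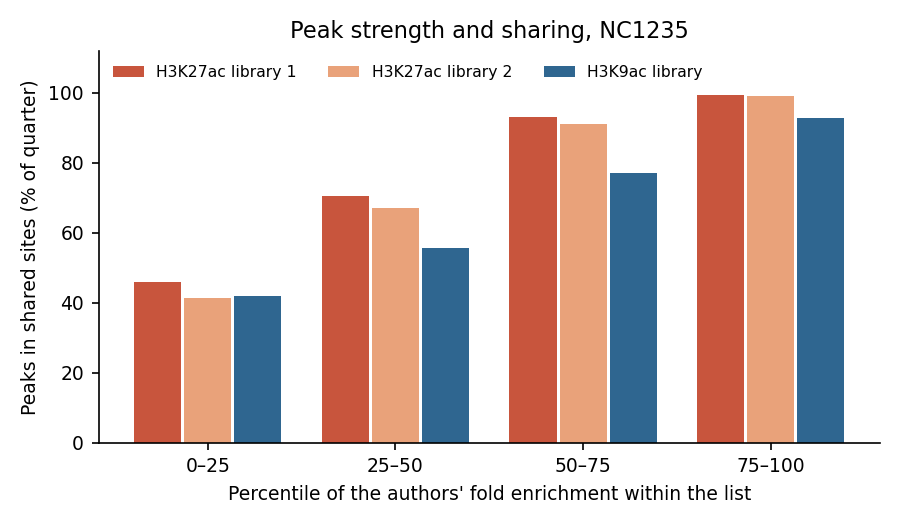
Share of peaks (%, vertical axis) that lie in shared sites, by percentile of the authors' fold enrichment within each list (horizontal axis), for the 2 H3K27ac libraries and the H3K9ac library of NC1235. In the strongest peaks the share is 99.4% and 99.2% for H3K27ac and 92.9% for H3K9ac, and in the weakest it is 45.8%, 41.4% and 41.9%.

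Single-mark sites were narrow. The median width was 598 bp for H3K27ac-only sites, 400 bp for H3K9ac-only sites and 2067 bp for shared sites, which are the union of 3 peaks or more and so can only be wider than each of them. A width of 1 kb or more was reached by 24.5% of H3K27ac-only, 8.77% of H3K9ac-only and 83.6% of shared sites. The H3K27ac-only width rests on asking for both lists: with either H3K27ac list left out, the ratio of the H3K27ac-only to the H3K9ac-only median width, 1.495 with both, was 1.02 and 1.09. The counts of single-mark sites also depend on how many peaks each list holds. With the 40000 peaks of lowest p-value in each list, 8683 sites were H3K27ac only and 7957 were H3K9ac only.

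The marks differed in where they stood alone. Of H3K27ac-only sites 7.08% lay within 1 kb of an end of a protein-coding or lncRNA gene, against 19.3% of H3K9ac-only and 40.2% of shared sites. Over all sites the share was 27.4%. The median distance to the nearest gene end was 17156 bp for H3K27ac-only, 6040 bp for H3K9ac-only and 3980.5 bp for shared sites. More than 10 kb from any gene end lay 62.9% of H3K27ac-only, 39.6% of H3K9ac-only and 36.6% of shared sites, and beyond 100 kb 8.65%, 3.24% and 3.17% in the same order. H3K9ac-only sites were thus nearly as rarely remote as shared ones, but they seldom held a gene end themselves: 2.07% of H3K27ac-only, 8.14% of H3K9ac-only and 34.1% of shared sites did. Of the distance ranges used, 1 to 10 kb from a gene end was the most common for an H3K9ac-only site, with 41.1% of them.

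**Figure D2:**
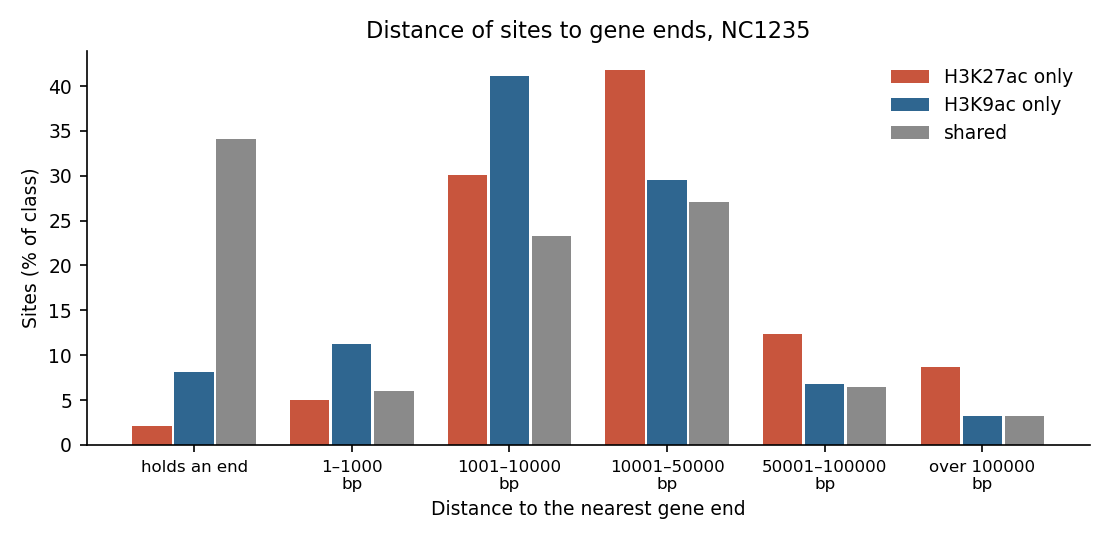
Share of sites of each class (%, vertical axis) by distance from the nearest gene end (horizontal axis, bp) for H3K27ac-only, H3K9ac-only and shared sites of NC1235. H3K27ac-only sites are most frequent at 10 to 50 kb (41.8%), H3K9ac-only sites at 1 to 10 kb (41.1%), and shared sites hold a gene end in 34.1% of cases.

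Where the strand was known, the near sites could be placed at starts or at finishes of genes. Within 1 kb of a start lay 2.92% of H3K27ac-only, 13.1% of H3K9ac-only and 33.8% of shared sites. Of the sites near either kind of end, 51.9% of H3K27ac-only, 76.6% of H3K9ac-only and 90.6% of shared sites were near a start. The few H3K27ac-only sites by a gene end were therefore spread almost evenly over starts and finishes. Sites away from gene ends lay inside a protein-coding gene in 43.0% of H3K27ac-only, 59.8% of H3K9ac-only and 51.4% of shared cases.

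The contrast was present at each width and was widest among the broad sites. Under 500 bp, 6.68% of 2681 H3K27ac-only and 12.99% of 11155 H3K9ac-only sites were within 1 kb of a gene end. From 500 bp to under 1 kb the shares were 6.75% of 2961 and 22.6% of 4820, with 16.7% of shared sites. At 1 to 2 kb they were 7.74% of 1511 and 52.4% of 1396. Among sites of 2 kb or more, 33 of 318 H3K27ac-only sites (10.4%) and 116 of 140 H3K9ac-only sites (82.9%) were near a gene end, against 53.2% of shared sites. A broad H3K9ac peak without H3K27ac was thus mostly a feature of gene ends, and 115 of those 116 had a protein-coding gene as the nearest. The widest of them spanned 4766 bp and held an end of WNT11, a secreted Wnt ligand, and of a neighbouring lncRNA gene. The next held an end of EFNA3, an ephrin ligand (3804 bp), and the third lay 679 bp from ZNF423, a zinc finger transcription factor gene (3784 bp). The widest H3K27ac-only site, of 5687 bp, held an end of FTSJ1, a tRNA methyltransferase gene, and the next was 4672 bp wide and 59752 bp from ANGPT1, the gene of a ligand of the receptor TIE2. The widest shared sites covered 38120 bp at TNS3 and 29306 bp at AMOTL2, which encode a focal adhesion and a tight junction protein.

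**Figure D3:**
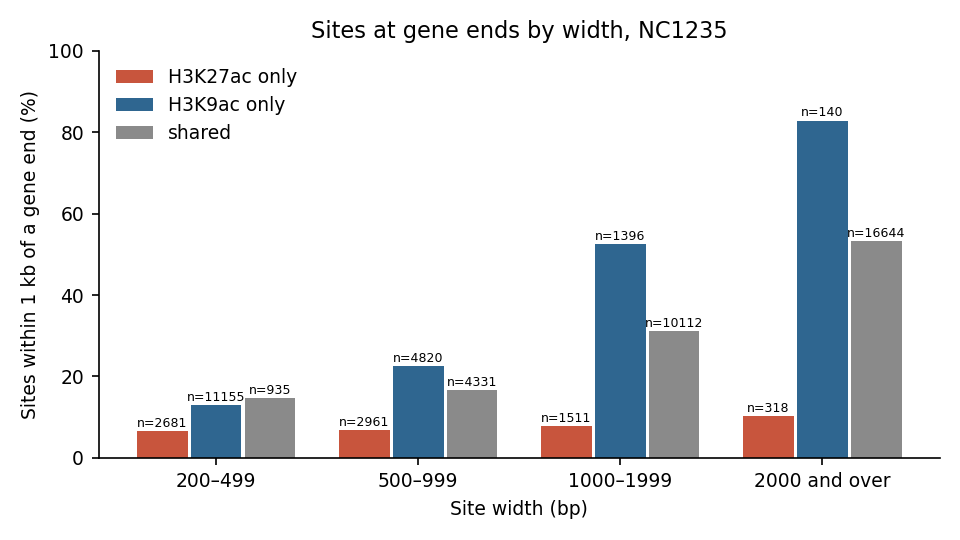
Share of sites within 1 kb of a gene end (%, vertical axis) by site width (bp, horizontal axis) for H3K27ac-only, H3K9ac-only and shared sites of NC1235, with the number of sites above each bar. The H3K27ac-only share lies between 6.68% and 10.4% in every width range, and the H3K9ac-only share between 12.99% and 82.9%.

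Inside shared sites the marks also differed in extent, and the direction depended on position. Near a gene end, H3K27ac covered a median of 1735 and 1714 bp in libraries 1 and 2, against 2462 bp for H3K9ac, and both H3K27ac lists covered less than H3K9ac in 79.5% of 12858 sites. Over 10 kb from gene ends it was the other way: H3K27ac covered 1454 and 1450.5 bp, against 1006 bp for H3K9ac, and both H3K27ac lists covered more in 64.8% of 11720 sites. Strength within the list moved with position as well. At shared sites near gene ends the median percentile of fold enrichment was 75.5 and 76.3 for H3K27ac libraries 1 and 2 and 87.4 for H3K9ac, and over 10 kb away it was 53.9 and 57.4 for H3K27ac and 53.8 for H3K9ac. H3K9ac was more often broken into several peaks: a shared site held 2 or more peaks in 7.50% and 11.7% of cases for the H3K27ac lists and in 18.99% for H3K9ac.

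At gene starts the extra H3K9ac lay mostly downstream, over the first part of the gene. In 5976 shared sites that held 1 known start, H3K27ac reached a median of 1093.5 and 1094.5 bp downstream in libraries 1 and 2, against 1771 bp for H3K9ac. Upstream the reach was 626 and 621 bp for H3K27ac and 840.5 bp for H3K9ac. Both H3K27ac lists ended short of H3K9ac downstream in 91.8% of these sites and beyond it in 4.79%. The summit lay downstream of the start by a median of 178 and 170 bp for H3K27ac and by 230 bp for H3K9ac. Over 13792 protein-coding genes, the position 1 kb downstream of the start was inside a peak in 32.1% of genes in each H3K27ac library and in 53.7% for H3K9ac. At the start itself the shares were 49.5% and 47.9% for H3K27ac and 60.3% for H3K9ac. At gene finishes they were 4.32% and 4.39% for H3K27ac and 6.18% for H3K9ac, with no peak in the profile there.

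**Figure D4:**
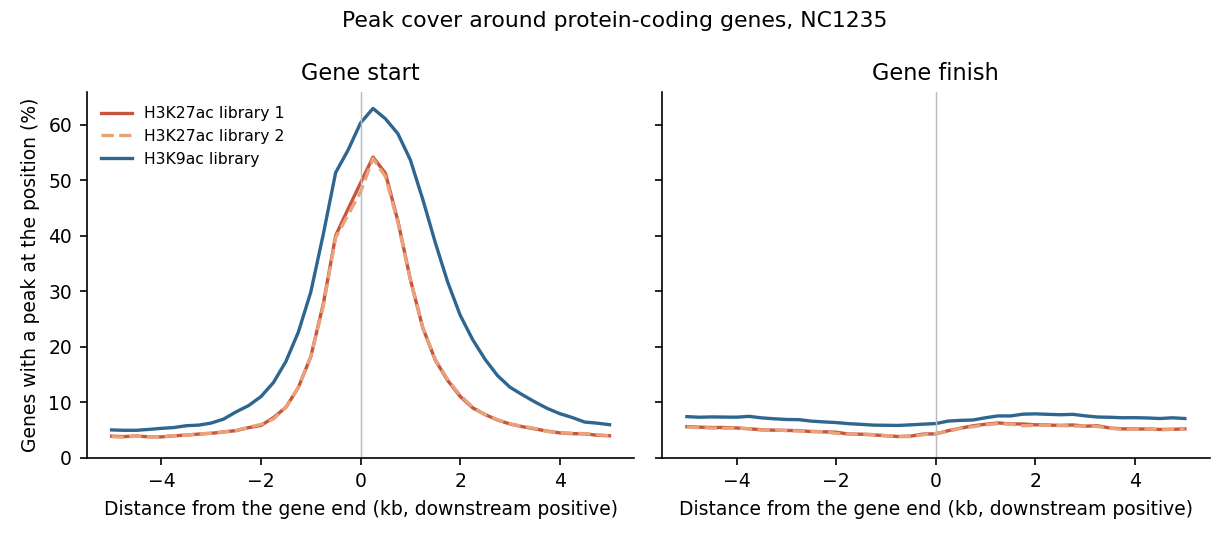
Share of 13792 protein-coding genes (%, vertical axis) with a peak at each distance (kb, horizontal axis, downstream positive) from the gene start (left) and the gene finish (right), for the 2 H3K27ac libraries and the H3K9ac library of NC1235. The H3K27ac curves lie on each other and below H3K9ac, with 32.1% against 53.7% at 1 kb downstream of the start.

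The class of the gene at hand differed between the single marks. Among sites within 1 kb of a gene end, the nearest gene was protein-coding for 189 of 529 H3K27ac-only sites (35.7%), 2369 of 3387 H3K9ac-only sites (69.9%) and 9411 of 12858 shared sites (73.2%). The rest were nearest to lncRNA genes, so lncRNA genes made up 64.3% of the H3K27ac-only neighbours. Over all 17541 sites within 1 kb of a gene end they made up 29.5%. The ends used were those of 19974 protein-coding and 18177 lncRNA genes. Counted over genes, 104 of 19974 protein-coding genes (0.521%) had H3K27ac without H3K9ac within 1 kb of an end, 1711 (8.57%) had H3K9ac without H3K27ac, and 11272 (56.4%) had both. At known starts alone, the states held 0.297%, 7.87% and 59.2% of 15812 genes. Of 18177 lncRNA genes, 250 (1.38%) had H3K27ac only, 942 (5.18%) H3K9ac only and 4234 (23.3%) both. Of 424 tRNA genes, which RNA polymerase III transcribes, 0 had H3K27ac only, 38 H3K9ac only and 215 both. A gene end can be near a site because a neighbouring promoter is close, and the windows cannot tell these apart.

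The named genes with H3K27ac-only sites stood far below the named shared ones. Each set is the top of its class, and the classes held 529 and 12858 sites within 1 kb of a gene end. The top of a larger class can be higher for its size alone, so these ranks do not compare the classes. Genes were named only where every site within 1 kb of an end was of 1 class, and they were ranked by the percentile of the peak in its list, for H3K27ac by the lower of the 2. The gene counts above rest instead on peaks within the 1 kb windows, so a gene beside a shared site can count as H3K27ac only or H3K9ac only there and not be named here. Such genes included, chosen after their values were seen, FOXI1 with H3K27ac only (22.6 and 24.2) and SLC9A3 with H3K9ac only (50.1). First among the named genes came LOC124904962, with fold enrichments of 21.3 and 24.7 in libraries 1 and 2. PLET1, a cell surface protein gene, had 19.3 and 18.7, and PLA2G2F, a secreted phospholipase, had 22.4 and 17.1. OLR1, a receptor for oxidised low-density lipoprotein, had 16.8 and 18.7, and PTP4A1 had 11.3 and 15.2. All 5 stood between the percentiles 51.1 and 78.1 of their lists. The next were SGK2, a serum- and glucocorticoid-regulated kinase, GPX2, an epithelial glutathione peroxidase, IL36RN, an antagonist of the interleukin-36 receptor, PAICS, an enzyme of purine synthesis, and CCN4, a secreted matrix-associated protein. Taken over all its annotated starts, PAICS had both marks. GPX2 had 9.76 and 12.8, and IL36RN 9.74 and 10.9. At 8 of these 10 sites, all but those of PLA2G2F and CCN4, the Si1235 lists held both marks.

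The named H3K9ac-only genes ranked higher in their own list. They were the top of a larger class, with 3387 sites within 1 kb of a gene end against 529 for H3K27ac only. BATF3, a basic leucine zipper factor of the AP-1 group known from dendritic cells, had a fold enrichment of 38.4, at percentile 98.3 of the H3K9ac list, in a site of 2177 bp (chr1:212698140-212700316). MIA3, which encodes a protein that exports collagen from the endoplasmic reticulum, had 32.6, and its site lay at the outermost end of a gene with an inner start that had both marks. CACNB4 had 31.0 and CENPV 30.7. ZSWIM5, a zinc finger protein gene, had 29.4, SLC43A1, an amino acid transporter gene, 28.8, and METRNL, a secreted factor gene, 28.5. LOC124903404 had 28.3, B4GALNT3, a glycosyltransferase gene, 26.9, and NXPH4, a neurexophilin gene, 26.8. The site stayed H3K9ac only in the Si1235 lists for 8 of the 10, all but MIA3 and B4GALNT3, where it held both marks. The highest shared genes were EIF2S2, a subunit of a translation initiation factor, with 176 and 150 for H3K27ac and 88.9 for H3K9ac, EWSR1 with 168 and 148 and 71.7, and CDC42SE1 with 167 and 143 and 62.8. CHTOP, an mRNA export factor gene, had the highest H3K27ac peaks of both lists, with 183 and 169, and 62.2 for H3K9ac. HEXIM2, an inhibitor of the transcription factor P-TEFb, CAPN1, a calpain protease, and CLDN7, a tight junction claudin, followed, and S100A1, RHBDD3 and ELP5 were named because they share a site with CHTOP, EWSR1 and CLDN7.

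The named H3K27ac-only sites far from genes had higher values than those named at gene ends. They were the top of 4698 sites over 10 kb away, against 529 sites within 1 kb of a gene end. The tops of groups of such unlike size do not compare the groups. The strongest H3K27ac-only site over 10 kb from a gene end had 60.7 and 66.6 in libraries 1 and 2, at percentiles 96.3 and 97.8, and is the wide site 59752 bp from ANGPT1. The next lay 24827 bp from FUT8, a fucosyltransferase gene (chr14:65329424-65332015), with 50.2 and 51.1. Then came sites whose nearest protein-coding genes were MID1, TBL1XR1 and SPIN1, between 39.6 and 50.3. The sites near ANGPT1, FUT8 and MID1 were shared in Si1235, and those near TBL1XR1 and SPIN1 were H3K27ac only there. Among the H3K27ac-only genes ranked above, the highest values were 22.4 and 24.7 in libraries 1 and 2. Sites 1 to 10 kb from gene ends or at lncRNA genes were not ranked. The strongest remote H3K9ac-only site lay between genes, 12896 bp from TPTE2-AS1, with 24.9, against 38.4 at BATF3, the first of the named genes. Others lay within genes, 11278 bp from an end of NR5A2, a nuclear receptor gene (22.3), and 12935 bp from an end of ARHGEF6 (20.9).

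In 17 gene lists with 388 matched genes, housekeeping genes carried both marks. Counted at either gene end, the H3K9ac-only state was most frequent among endothelial markers, the HER2 amplicon, HOX genes and immediate early genes. At known starts alone it held 2 of 8 endothelial markers and 3 of 17 HOX genes, but 1 of 11 amplicon and 1 of 16 immediate early genes. It held 2 of 13 luminal, 2 of 15 neuronal and 1 of 10 mesenchymal markers there, against 7.87% of all protein-coding genes with a known start. Over all protein-coding genes the shares were 8.57% for H3K9ac only, 56.4% for both marks and 33.0% for no peak. Both marks were at an end of 30 of 30 ribosomal protein genes, 20 of 20 genes of GCN5 and PCAF complexes, 29 of 30 replication genes, 26 of 27 genes of the respiratory chain, 18 of 21 luminal, 15 of 21 basal and 11 of 21 mesenchymal markers. Of 21 lymphoid and myeloid markers 16 had no peak, and of 21 neuronal markers 15 had none. The H3K9ac-only state held 7 of 33 HOX genes, among them HOXA11 (23.5), HOXB9 (14.4) and HOXD11 (10.1). It also held 4 of 13 endothelial markers, namely ESAM (16.7), KDR (11.4), FLT1 (9.32) and PECAM1 (6.28), of which KDR and FLT1 encode receptors of vascular endothelial growth factor. Of the 33 HOX genes 13 had no peak and 12 had both marks. Of the 13 endothelial markers 7 had no peak and 2, CDH5 and ROBO4, had both marks. Among 22 immediate early genes the H3K9ac-only state held EGR2 (11.1), ATF3 (9.46), NR4A1 (7.92) and EGR3 (5.90), and the other 18 had both marks. An inner annotated start of EGR2 and of NR4A1 had both marks, so for these genes the state concerns the outermost ends.

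Within the HER2 amplicon, 11 of 17 genes had both marks, and PNMT (9.98), TCAP (9.14), NEUROD2 (5.18) and IKZF3 (3.39) had H3K9ac only. These genes are known from adrenal, muscle, nerve and lymphoid cells. In the Si1235 lists PNMT and TCAP had both marks. The mesenchymal factor TWIST1 (18.3), the deacetylase gene HDAC9 (21.4), the progesterone receptor gene PGR (6.68), GRIN1 (13.2) and SLC17A7 (7.75) of neurons, and the interferon-induced CXCL11 (3.37) had H3K9ac only as well. GABRB2 (3.93), CECR2 (3.54) and ISG20 (4.05) were also in that state, and an inner start of HDAC9 and of ISG20 had both marks. No peak lay within 1 kb of an annotated start of CECR2. The H3K27ac-only state held 1 gene of all lists, TP63, a transcription factor of basal epithelium, with 5.95 and 8.85 in libraries 1 and 2, against 0.521% of all protein-coding genes. An inner start of TP63 had both marks.

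Gene families drawn by symbol after the classes were known are descriptions only, to be read against the 8.57% of all protein-coding genes with H3K9ac only. H3K9ac without H3K27ac was at 39 of 177 developmental transcription factor genes (22.03%), such as SIX2, SIX3, LHX2, SOX2, SOX11, POU3F2, EMX1, NEUROG2 and FOXF1. It was at 31 of 122 potassium and calcium channel genes (25.4%), such as KCNQ1, KCNK4, KCNH1 and CACNA1G, and at 8 of 29 WNT and FZD genes (27.6%), which encode Wnt ligands and their receptors. Both marks were at 29.9%, 12.3% and 55.2% of these 3 families in that order, against 56.4% of all protein-coding genes. No peak was at 44.6%, 59.0% and 17.2%, against 33.0% of all. Among solute carrier genes H3K9ac without H3K27ac was at 42 of 386 (10.9%), near the share over all genes. It was at 18 of 509 ZNF genes (3.54%), 0 of 77 mitochondrial ribosomal genes and 0 of 80 cytosolic ribosomal protein genes, whose members nearly all had both marks (96.1% and 97.5%). Olfactory receptor genes mostly had no peak (99.0% of 392).

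Promoters with H3K27ac only, few in number, were poor in CG. Over 22012 protein-coding promoters of 300 bases, the median number of CG dinucleotides was 4 at the 83 starts with H3K27ac only within 1 kb, 25 at 1782 with H3K9ac only, 27 at 12272 with both marks and 6 at 7603 without a peak. The GC box (GGGCGG on either strand, a motif that holds a CG) was present in 25.3% of H3K27ac-only, 66.7% of H3K9ac-only and 71.2% of shared promoters, in 29.7% of those without a peak and in 56.3% of all. An ETS motif (CCGGAAG on either strand, which also holds a CG) was present in 1.20% of H3K27ac-only, 3.87% of H3K9ac-only and 19.8% of shared promoters, in 3.74% of those without a peak and in 12.8% of all. Among promoters with 20 or more CGs the ETS share was 4.23% of 1112 with H3K9ac only and 22.2% of 8881 with both marks, with 9.03% of 1440 without a peak, so at a like CG content (medians of 33 and 31) H3K9ac-only and shared promoters still differed. H3K9ac-only starts were thus close to shared starts in CG content and GC boxes, with fewer ETS motifs. The AP-1 motif TGANTCA was present in 14.5% of H3K27ac-only, 5.11% of H3K9ac-only and 4.64% of shared promoters, in 8.84% of those without a peak and in 6.16% of all. TATAAA was present in 13.3%, 7.58% and 5.19%, in 16.9% without a peak and in 9.49% of all. CCAAT was present in 33.7%, 27.3% and 35.7%, the cyclic AMP response element TGACGTCA in 0%, 1.52% and 3.10%, and the E-box CACGTG in 4.82%, 7.58% and 10.1%, against 34.7%, 1.12% and 5.66% of promoters without a peak and 34.7%, 2.25% and 8.32% of all promoters. A match is a match of letters, on either strand, and no binding was measured.

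**Figure D5:**
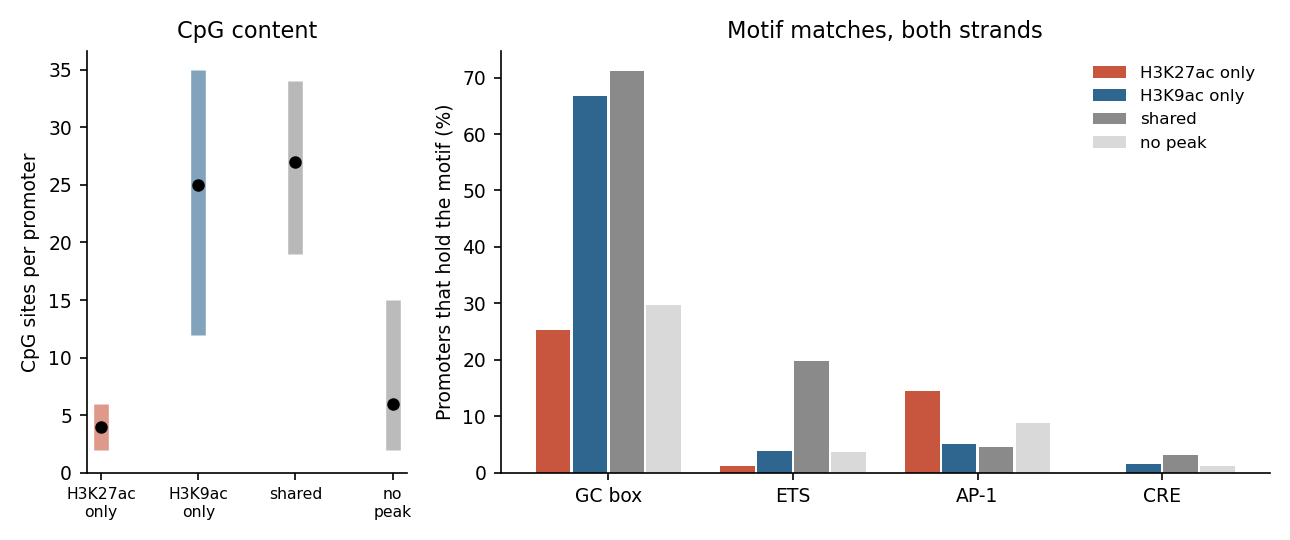
Number of CpG sites per promoter (left, vertical axis, dot for the median and bar for the range from the first to the third quartile) and share of promoters that hold a motif (right, %) for protein-coding starts with H3K27ac only (n = 83), H3K9ac only (n = 1782), both marks (shared, n = 12272) and no peak (n = 7603) within 1 kb. The medians are 4, 25, 27 and 6, and the ETS share is 1.20%, 3.87% and 19.8% in the first 3 groups.

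Other marks of the same arm lay differently over the classes. A peak of H2A.Z (libraries 1 and 2) overlapped 34.4% and 27.9% of H3K27ac-only, 39.2% and 35.4% of H3K9ac-only and 74.5% and 70.5% of shared sites. Near gene ends the H2A.Z shares were 36.9% and 28.5% of H3K27ac-only, 69.9% and 65.8% of H3K9ac-only and 92.3% and 90.5% of shared sites. Over 10 kb away the single marks were close, at 35.3% and 29.0% of H3K27ac-only and 35.8% and 31.8% of H3K9ac-only sites. The broad H3K9ac-only sites of 2 kb or more had H2A.Z in 89.3% and 88.6% of cases, against 55.7% and 46.2% of the broad H3K27ac-only sites. H3K36me3, a mark of transcribed gene bodies, overlapped 3.63% and 3.01% of H3K27ac-only, 10.8% and 9.26% of H3K9ac-only and 10.8% and 9.11% of shared sites. Peaks of the chromatin isolation by RNA purification library, which recovers DNA near a chosen RNA, overlapped 6.85% of H3K27ac-only, 5.85% of H3K9ac-only and 15.3% of shared sites. Shared sites are wider, and a wider site has more room for another peak. At widths of 500 bp to under 1 kb, H2A.Z overlapped 30.7% and 25.5% of H3K27ac-only, 52.9% and 49.4% of H3K9ac-only and 52.6% and 47.2% of shared sites. At the same widths H3K36me3 overlapped 3.51% and 3.11% of H3K27ac-only, 9.32% and 8.11% of H3K9ac-only and 4.66% and 3.88% of shared sites, and the RNA purification peaks overlapped 5.67%, 6.99% and 7.16%. The H3K36me3 shares of H3K9ac-only and shared sites, alike when sites of all widths were pooled, thus differed here, and the excess of RNA purification peaks at shared sites was small. At 2 kb or more the H3K36me3 order turned, with 5% and 5% of 140 H3K9ac-only and 16.2% and 13.9% of 16644 shared sites. The RNA purification peaks overlapped 16.7% of H3K27ac-only, 12.9% of H3K9ac-only and 20.7% of shared sites of that width.

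The classes recurred to different degrees in the Si1235 lists, which come from separate libraries of the same marks and also from another treatment. The same class was found there for 34.6% of H3K27ac-only, 42.1% of H3K9ac-only and 88.6% of shared sites. These shares are unlike, since H3K27ac only asks for a peak in both Si1235 H3K27ac lists and H3K9ac only for one in the sole H3K9ac list. Another 10.9% of H3K27ac-only sites had a peak in 1 Si1235 H3K27ac list and none of H3K9ac. Si1235 peaks of the same mark overlapped 67.6% and 63.7% of H3K27ac-only sites (libraries 1 and 2) and 49.7% of H3K9ac-only sites. A further 23.3% of H3K27ac-only sites were shared in Si1235, against 3.48% of H3K9ac-only sites, and 44.7% of H3K9ac-only sites had no peak there, against 20.3% of H3K27ac-only sites. H3K9ac-only sites that recurred were closer to genes: 28.2% lay within 1 kb of a gene end, against 11.5% of those with no peak in Si1235. At the level of protein-coding genes, the state recurred for 22.1% of the 104 H3K27ac-only, 75.5% of the 1711 H3K9ac-only and 98.0% of the 11272 genes with both marks. Of the 104, 44.2% had both marks in Si1235. The broad sites of 2 kb or more kept their class in 32.1% of H3K27ac-only and 78.6% of H3K9ac-only cases. Arm and library cannot be told apart here for H3K9ac.

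The balance of the single marks differed between chromosomes. H3K9ac-only sites outnumbered H3K27ac-only sites on each of the 23 chromosomes, and in all by 17511 to 7471. That order depends on the size of the lists: with 40000 peaks per list 7957 sites were H3K9ac only and 8683 were H3K27ac only. The ratio was 5.55 on chromosome 19, which has 24.8 protein-coding genes per Mb, and 5.38 on chromosome 17, with 14.04 per Mb. It was 1.45 on chromosome 18, with 3.36 genes per Mb, and 1.48 on chromosome 4, with 4.05. These were the highest and lowest ratios, and the others did not all follow gene density. The ratio was 2.38 on chromosome 11, with 9.63 genes per Mb, and 1.76 on chromosome 13, which had the fewest per Mb (2.96). The megabase with the most H3K27ac-only sites (20, against 14 H3K9ac-only) was chr6:106000001-107000000, and 46 H3K9ac-only sites against 3 H3K27ac-only sites lay both in chr16:57000001-58000000 and in chr20:50000001-51000000. Single-mark sites kept a like distance from shared ones, with a median of 10123 bp for H3K27ac-only and 8987 bp for H3K9ac-only sites, and 18.9% and 21.2% of them lay within 1 kb of a shared site.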

How the data were processed

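Chromatin immunoprecipitation with sequencing was analysed from the peak lists as deposited, 1 per library and none pooled. The submitters' processing notes name Bowtie2 2.2.9, MACS2, HTSeq 2.0.3, DESeq2 1.22.2 and the build hg38, without a role for each. The MACS2 version, its settings and its control are not given in the sources used here. For each peak, the authors' lists give a fold enrichment, a ratio over local background, a −log10 p-value and a −log10 q-value. All deposited −log10 q-values in the 3 main lists were at least 2.01. That fold belongs to the peak as the authors called it, and it served to rank and describe peaks within a list.

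Restricting the lists to chromosomes 1 to 22 and X left out 5, 5 and 9 peaks of H3K27ac 1, H3K27ac 2 and H3K9ac. Peaks sharing 1 bp or touching were merged. Gene ends were those of 19974 protein-coding and 18177 lncRNA genes of the RefSeq table of GRCh38.p14, the assembly of hg38. That table has no strand, so starts came from the RefSeq promoter table, which lists a start for 15812 of the protein-coding genes and none on chromosome 8. Distances run from the site's nearer edge. Named genes were the 10 per class of highest fold percentile among protein-coding genes with sites of 1 class, and the 5 strongest sites over 10 kb from a gene end. Some items that these rules and the gene lists name are not reported here. The members, gene lists and comparisons were chosen with earlier results of these data known. The merging, classes and distances were tested on simulated peaks. No test was made, because H3K9ac has 1 library in the arm. The labels do not say whether the H3K27ac replicates came from separate cultures. Alternatives changed the peak threshold, the number of peaks, the cover asked of a mark, the joining of peaks, the window, the gene ends and the H3K27ac replicate. Python 3.11.15, numpy 2.4.6 and pandas 2.3.3 were used.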

Additional observations from a re-analysis of the deposited data

How the results depend on the processing

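Main values were 7471 H3K27ac-only and 17511 H3K9ac-only sites, a difference of -12.3 percentage points in the share within 1 kb of a gene end (H3K27ac only minus H3K9ac only), a ratio of median widths of 1.495 and a difference of -34.2 points in the protein-coding share. No alternative reversed a direction of the last 3. Of 49 values 23 stayed near the main value, for counts within 1.5 times and for the others within a standard deviation. That deviation was taken between the 2 values with 1 H3K27ac list left out, which are themselves among the 49. It is not a spread around the main value, so the count of 23 is a description only. With a −log10 q of at least 5 there were 10513 H3K9ac-only sites, and the other values were -18.4, 1.43 and -36.2. With 40000 peaks per list there were 8683 H3K27ac-only and 7957 H3K9ac-only sites, so the order of the counts turned, with -23.3 and -38.9 points. With 25% cover asked the values were -13.1, 1.71 and -34.9, and with peaks within 500 bp joined the ratio was 2.47. Without one or the other H3K27ac replicate, H3K27ac-only sites numbered 9750 to 11844, and the values ran from -12.6 to -12.0, 1.02 to 1.09 and -34.1 to -33.3. A window of 2.5 kb gave -17.9 and -28.7, starts alone -10.1, and the lists' own peak widths 1.24. Chosen after seeing the data, sites of the same class in Si1235 gave -21.4, 1.21 and -48.2, sites of 500 bp to under 1 kb -15.9 and -33.2, and leaving out chromosomes 17 and 19 -11.8 and -35.0. The cause of these shifts was not tested. No paired analysis was possible because H3K9ac has 1 library and no test was made. A site without a peak may hold the mark below the authors' threshold, the depth of the libraries is unknown, and asking for both H3K27ac lists but for the sole H3K9ac list makes the classes unequal.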
